A study of Mus musculus with 33 samples.

Results

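Oxidative phosphorylation is carried out by 5 protein complexes of the inner mitochondrial membrane, and the transcripts of their subunits were followed here across 4 groups of mouse livers. Members were taken by name: every gene called Ndufa, Ndufb, Ndufc, Ndufs, Ndufv, Uqcr, Atp5, Cox4i, Cox5, Cox6, Cox7 or Cox8, Sdha, Sdhb, Sdhc, Sdhd and Cyc1 in the deposited normalised table, without pseudogenes, formed the nuclear-encoded set, and the mt-Nd, mt-Co, mt-Cytb and mt-Atp genes of the mitochondrial chromosome formed the second set. The rule found 96 genes among the 25988 of the count table, 83 nuclear-encoded and 13 mitochondrially encoded. The rule itself reads names only.

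Complexes I to IV are the respiratory chain. Complex I takes electrons from NADH and complex II, succinate dehydrogenase, takes them from succinate in the citric acid cycle. Both pass them through coenzyme Q to complex III, which hands them by way of cytochrome c to complex IV, where oxygen is reduced. Complexes I, III and IV pump protons, and complex V, ATP synthase, uses the proton gradient to make ATP. Every complex except complex II combines proteins imported from the cytosol with proteins made inside the mitochondrion from its own circular chromosome. The liver relies on this pathway for the ATP that gluconeogenesis, ureagenesis and lipid handling require, and ChREBP, the sugar-sensing transcription factor encoded by Mlxipl, is best known for driving genes of glycolysis and lipogenesis.

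All mice were male, on a C57BL/6J background and labelled 13 to 18 weeks old. The paper gives that range as the age at shRNA delivery in its shorter follow-up study, from which these data come. The mice were therefore older when the livers were taken. Cre-negative mice with the floxed G6pc gene, written L-G6pc+/+, and mice that also carried a tamoxifen-inducible Cre recombinase under the albumin locus, written L-G6pc-/-, all received tamoxifen, so that the controls share the floxed allele and the drug. G6pc encodes the glucose-6-phosphatase subunit that releases glucose from liver, and its loss in hepatocytes models glycogen storage disease type Ia. In each genotype mice received an AAV that expressed an shRNA against ChREBP (shChREBP) or a scrambled shRNA (shSCR) from a U6 promoter, which is not restricted to hepatocytes. The L-G6pc+/+ livers gave 8 libraries with shSCR and 8 with shChREBP, the L-G6pc-/- livers gave 8 with shSCR and 9 with shChREBP, and libraries are numbered s1 to s33. The labels do not say that each came from a different mouse, so n counts libraries and the p-values measure the spread between them.

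RNA was measured by 3' end sequencing of whole liver, which places each read near the end of a transcript. Libraries held 1497843 to 3546852 counted reads. Levels are given as CPM, the counts of a gene scaled to a common library total, with library totals adjusted by the trimmed mean of M values (TMM). A change in the share of a cell type and a change in the RNA per cell cannot be told apart in such samples. Mlxipl fell by 0.55 ± 0.13 (SE) on the log2 scale with shChREBP in L-G6pc+/+ and by 0.57 ± 0.13 in L-G6pc-/- (adjusted p = 0.013 and 0.0042, edgeR). G6pc, whose 3' reads need not lie in the deleted part, was not called between the shSCR groups (0.56, adjusted p = 0.37, edgeR) and gave no check of the genotype. Pklr, which the paper names as a ChREBP target, did differ by genotype. It lay between 65.9 and 195 CPM in shSCR/L-G6pc+/+ (median 122) and between 232 and 461 CPM in shSCR/L-G6pc-/- (median 304). With shChREBP its medians were 62.9 CPM in L-G6pc+/+ and 204 CPM in L-G6pc-/-. All 14 hepatocyte markers were detected in every group, with a summed level of 45637 to 83870 CPM per library, and its median was lowest in shChREBP/L-G6pc-/- (53506 CPM against 68031 in shSCR/L-G6pc+/+). The 12 Kupffer cell and macrophage markers had median sums of 1394 CPM in shSCR/L-G6pc+/+, 1485 in shChREBP/L-G6pc+/+, 1877 in shSCR/L-G6pc-/- and 2085 in shChREBP/L-G6pc-/-. These sums moved with the groups in the comparisons below. Cd5l, with the most reads of the 12, had medians of 646, 659, 865 and 1010 CPM in the same order. Between the shSCR groups the median of C1qa went from 216 to 181 CPM, of Clec4f from 48.8 to 48.6 and of C1qc from 53.6 to 55.0. The rise of the sum was therefore not shared by all markers. With shChREBP in L-G6pc-/- 4 of the 14 hepatocyte markers were called lower (4.23% of all genes were) and 3 of the 12 Kupffer cell and macrophage markers higher (3.33% of all genes). None of these 7 was called without the 4 libraries named at the end of this paragraph, where 1.02% of all genes were called in either direction. With shChREBP in L-G6pc+/+ 2 of the 14 hepatocyte markers were called lower (3.23% of all genes were). No Kupffer cell or macrophage marker was called there (2.16% of all genes were called higher), although 11 of 12 had values above 0 (median 0.28). Between the shSCR groups 1 of the 14 hepatocyte markers, Alb, was called lower (-0.79), against 1.03% of all genes, and none of the 12 others was called. Their part in those results was not tested. Libraries s29, s30, s32 and s33 of shChREBP/L-G6pc-/- stood at one end of the first principal component of all genes, and calls of members that involve that group are therefore also given without them.

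Of the 96 members, 92 had enough reads for the fit across 10179 genes. These were 82 nuclear-encoded members, comprising 34 subunits of complex I, 4 of complex II, 8 of complex III, 12 of complex IV, 15 of complex V and 9 assembly factors that the name rule also took in, and 10 mitochondrially encoded members. Ndufs5 (243 reads over all libraries), mt-Nd3 (92), mt-Nd4l (10) and mt-Atp8 (7) were left out for few reads. Mean levels ran from 4.82 to 2153 CPM among the nuclear-encoded members and from 5.30 to 5984 CPM among the mitochondrially encoded ones. Together the nuclear-encoded members took 1.40% to 2.23% of the counts of a library, and the mitochondrially encoded members took 1.72% to 2.67%. The name rule missed a few subunits: Ndufb4 shares a row with 2 other genes in the deposited table, and Uqcrc1, a core protein of complex III, had 6 reads in all. Atp5mpl, an ATP synthase subunit deposited under the name 2010107E04Rik, had 18520 reads and was in the fit, but is not counted as a member.

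Several short DNA words are found often in the promoters of respiratory chain genes, and the windows of the members were searched for 4 of them to describe what the set shares beyond its name. RefSeq windows of 300 bases (250 before and 50 after the start, GRCm38.p6) were matched for 68 of the 83 nuclear-encoded members. The NRF1 core GCGCATGC was present on either strand in 10 of 68 members (14.7%), against 6.14% of 7871 windowed genes in the fit and 3.05% of all 27025 genes with a window. The ETS word CCGGAAG, read by GABPA among others, was present in 17 of 68 (25%), against 21.3% and 9.93%. The YY1 word ATGGCGG was present in 12 (17.6%), against 10.1% and 4.69%. The E-box CACGTG, the half-site of the element that ChREBP binds, was present in 6 (8.82%), against 12.1% and 8.09%. None of these 4 words contains another. The 6 members with the E-box were Atp5sl, Ndufa7, Ndufv1, Atp5g1, Atp5g3 and Atp5l. Stretches just before the RefSeq start are printed for the only member called higher in shSCR/L-G6pc-/- and for 2 called members of other comparisons that held a word. Capitals mark the word, read here on the opposite strand.
Ndufa8, chr2:36049339-36049368, minus strand, with the reverse complement of the NRF1 core from base 8 before the start: gcgcttgcgcgtcgctggagacGCATGCGC
Atp5e, chr2:174464102-174464251, minus strand, with the ETS word from base 102 before the start: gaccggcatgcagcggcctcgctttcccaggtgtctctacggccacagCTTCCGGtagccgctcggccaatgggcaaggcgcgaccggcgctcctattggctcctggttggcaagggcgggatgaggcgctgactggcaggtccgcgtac
Cox6b1, chr7:30626122-30626264, minus strand, with the ETS word from base 28 before the start: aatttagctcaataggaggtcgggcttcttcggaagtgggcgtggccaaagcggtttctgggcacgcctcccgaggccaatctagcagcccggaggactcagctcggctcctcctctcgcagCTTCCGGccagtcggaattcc
The 7 bases next to the RefSeq start of Cox6b1 are not printed. GENCODE M21, which gives the gene coordinates used below, sets the start of all 3 genes further upstream, so that the whole Ndufa8 stretch and the last bases of the Cox6b1 and Atp5e stretches lie inside its genes. A match of letters is a description of the window and not a measured binding site.

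Some members share their transcript ends with other genes, which limits what their counts mean. Of 82 nuclear-encoded members, 53 had no 50-base window of their last 300 bases in the transcript of another gene, and 11 shared over 20% of them. The highest shares were 70.1% for Atp5l, 65.2% for Cox7c and 59.2% for Atp5h. Among the mitochondrially encoded members mt-Co1 and mt-Co2 shared 100% of their windows, mt-Co3 99.6% and mt-Atp6 98.8%, with annotated nuclear copies of mitochondrial DNA, whereas mt-Nd1, mt-Nd4, mt-Nd6 and mt-Cytb shared none. Mean levels of mt-Co2, mt-Co3 and mt-Atp6 were 5.30, 8.74 and 6.20 CPM, and how reads with several matches were counted is not stated. The row deposited as Atp5g2 carries an identifier that GENCODE M21 gives to a pseudogene, Gm10175. The sums over members and the shares of counts include these rows.

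The first comparison asked whether subunit transcripts differ when G6pc is deleted in hepatocytes, with shSCR in both genotypes. Ndufa8, an accessory subunit of complex I on the side of the intermembrane space, was the only one of 82 nuclear-encoded members called higher in shSCR/L-G6pc-/- than in shSCR/L-G6pc+/+ (1.22% of the members, against 2.2% of all 10179 genes called higher), and none was called lower (against 1.03% of all genes). None of the 10 mitochondrially encoded members passed the test in either direction, and none had an unadjusted p under 0.05 with edgeR or an adjusted p under 0.05 with DESeq2. Fold changes of the nuclear-encoded members leaned to one side: 70 of 82 were above 0 on the log2 scale with a median of 0.11, against 5123 of 10179 genes and a median of 0.00. Members of a library moved together, with 72 of 82 below their group mean in s1 of shSCR/L-G6pc+/+. Such counts of signs are therefore not independent, here or below.

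Ndufa8 (chr2:36036326-36049406, GRCm38) lay between 48.7 and 72.5 CPM in shSCR/L-G6pc+/+, with a median of 63.4, and between 71.3 and 105 CPM in shSCR/L-G6pc-/-, with a median of 80.6. The ranges met only at their edges. The log2 difference was 0.48 ± 0.10 (SE, n = 8 and 8, adjusted p = 0.0037, edgeR), or 1.39-fold. It stood at 75.6 CPM in the median of shChREBP/L-G6pc-/-, which was not called different from either neighbour (0.28 ± 0.10 against shSCR/L-G6pc+/+, adjusted p = 0.061, and -0.20 ± 0.10 against shSCR/L-G6pc-/-, adjusted p = 0.22).

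By complex, all 12 nuclear-encoded subunits of complex IV had values above 0 in this comparison with a median log2 difference of 0.22, yet none passed the test. The medians were 0.08 for the 34 subunits of complex I, 0.19 for the 4 of complex II, 0.05 for the 8 of complex III and 0.13 for the 15 of complex V. The 9 assembly factors had a median of 0.12. The mitochondrially encoded members had a median of -0.05, with 1 of 10 above 0. Cox7a1, the heart and muscle form of a complex IV subunit, and Cox7a2, the form of most tissues, were both measured. Cox7a1 ran from 5.29 to 9.13 CPM in shSCR/L-G6pc+/+ and from 5.56 to 14.4 CPM in shSCR/L-G6pc-/-, a log2 difference of 0.72 ± 0.22 that missed the threshold (adjusted p = 0.062), and Cox7a2 ran from 187 to 288 and from 201 to 363 CPM (0.31 ± 0.13, adjusted p = 0.22). Both pairs of ranges overlapped.

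**Figure D1:**
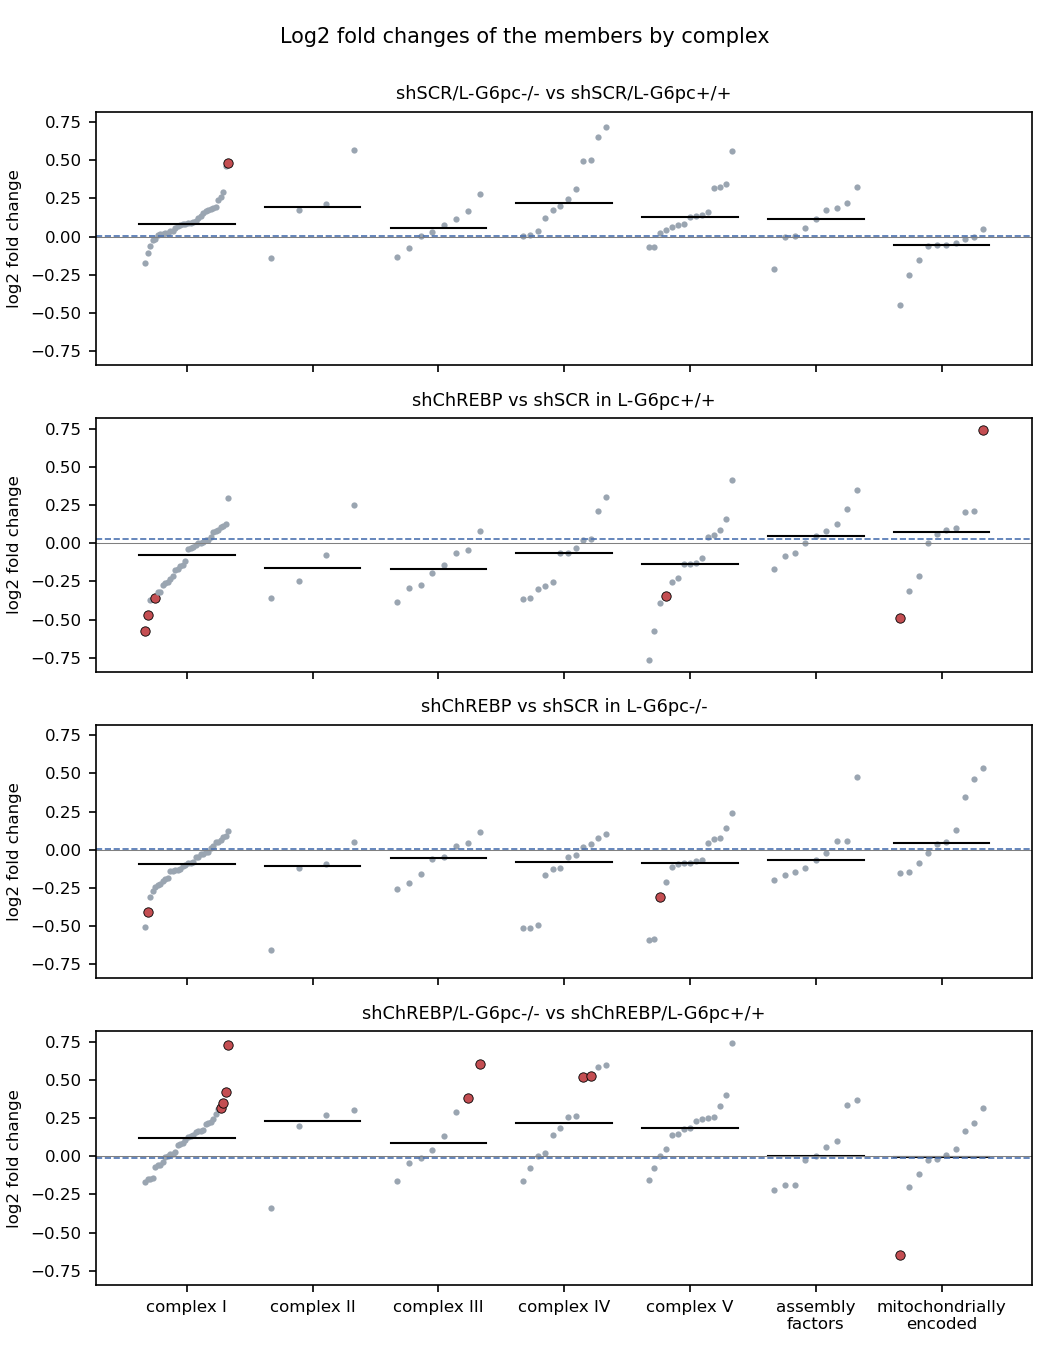
Log2 fold changes (vertical axis) of the 92 members in the fit, by complex, in 4 comparisons. Each point is a gene, red points passed the test at an adjusted p of 0.05, black bars are medians and the dashed line is the median of all 10179 genes. Most nuclear-encoded points lie above the line in the 2 panels that compare genotypes (70 and 61 of 82 above 0) and below it in the 2 panels on shChREBP (27 and 24 of 82 above 0).

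The second comparison asked what shChREBP does in L-G6pc+/+ livers. Here 4 of 82 nuclear-encoded members were called lower with shChREBP than with shSCR (4.88%, against 3.23% of all genes), and none was called higher (against 2.16%). They were Ndufa5, an accessory subunit of the arm of complex I that reduces coenzyme Q, Ndufb10 and Ndufb3, accessory subunits of its membrane arm, and Atp5o, the subunit that joins the catalytic head of ATP synthase to its peripheral stalk. In all, 27 of 82 members had values above 0, with a median log2 difference of -0.08, against 5441 of 10179 genes and a median of 0.03.

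Ndufa5 (chr6:24518666-24528013) lay between 215 and 346 CPM in shSCR/L-G6pc+/+ (median 277) and between 148 and 242 CPM in shChREBP/L-G6pc+/+ (median 180.0). Only the upper end of the shChREBP range reached the lower end of the control range. The log2 difference was -0.57 ± 0.14 (adjusted p = 0.013, edgeR). Atp5o (chr16:91925214-91931687) lay between 240 and 343 CPM with shSCR and between 189 and 230 CPM with shChREBP, without overlap, a difference of -0.35 ± 0.10 (adjusted p = 0.033). Atp5o shared 22.8% of its end windows with another gene and 26.6% with a gene it overlaps. Ndufb10 (152 to 201 against 94.7 to 162 CPM, -0.36 ± 0.11, adjusted p = 0.039) and Ndufb3 (148 to 228 against 90.3 to 168 CPM, -0.47 ± 0.14, adjusted p = 0.046) passed more narrowly, and their ranges overlapped.

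In the mitochondrially encoded set 2 of 10 members passed in this comparison, in opposite directions, and both encode subunits of the proton-pumping membrane arm of complex I. mt-Nd4 (chrM:10167-11544, plus strand) lay between 5027 and 7610 CPM with shSCR and between 3524 and 5385 CPM with shChREBP, a log2 difference of -0.49 ± 0.13 (adjusted p = 0.023, edgeR). mt-Nd6 (chrM:13552-14070, minus strand), the only member read from the other strand of the mitochondrial chromosome, lay between 159 and 398 CPM with shSCR and between 158 and 676 CPM with shChREBP, a difference of 0.74 ± 0.22 (adjusted p = 0.042). The mt-Nd6 range with shChREBP covered the whole control range and reached beyond it. Its last bases overlap those of mt-Nd5 (chrM:11742-13565), which lies on the other strand, and whether counting used the strand is not stated. mt-Nd5 itself was not called (-0.21 ± 0.14, adjusted p = 0.39).

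The remaining mitochondrially encoded members were not called in this comparison, with log2 differences of -0.32 ± 0.13 for mt-Cytb, the only mitochondrially encoded subunit of complex III, 0.06 ± 0.10 for mt-Nd1, 0.20 ± 0.14 for mt-Nd2 and 0.10 ± 0.10 for mt-Co1. Values for mt-Co2, mt-Co3 and mt-Atp6 were 0.21 ± 0.23, 0.09 ± 0.21 and 0.00 ± 0.19. Without libraries s9 and s13 of shChREBP/L-G6pc+/+, which also lay towards that end of the first principal component, neither mt-Nd4 nor mt-Nd6 was called (-0.46 and 0.43, adjusted p = 0.064 and 0.25, edgeR), and 2 nuclear-encoded members were called lower in place of 4. Leaving out 1 library at a time gave 1 to 8 nuclear-encoded calls, so that the count in this comparison depends on single libraries. The share of all genes called in these fits, or without s9 and s13, is not given here. A change in the count is therefore not a result about the members.

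**Figure D2:**
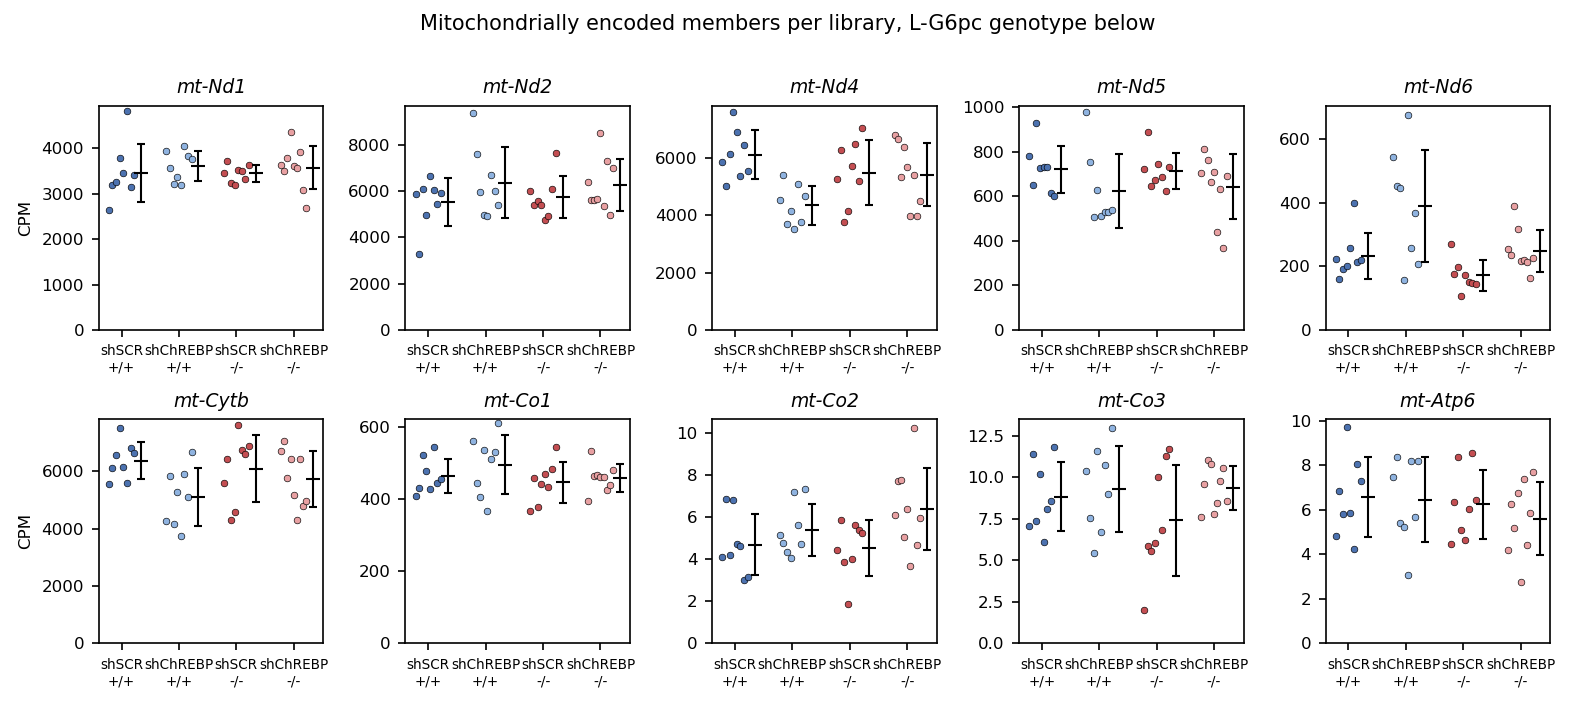
CPM (vertical axis, from 0) of the 10 mitochondrially encoded members in the fit, per library, in the 4 groups. Points are libraries and the bar beside each group is its mean ± SD (n = 8, 8, 8 and 9). mt-Nd4 is lower in shChREBP/L-G6pc+/+ (3524 to 5385 CPM) than in shSCR/L-G6pc+/+ (5027 to 7610 CPM), while mt-Nd6 spans 158 to 676 CPM in the former.

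The same question was then asked in L-G6pc-/- livers. Atp5e, the epsilon subunit in the central stalk of ATP synthase, and Ndufv3, a small accessory subunit of the NADH-oxidising end of complex I, were the 2 of 82 nuclear-encoded members called lower (2.44%, against 4.23% of all genes), and none was called higher (against 3.33%). None of the 10 mitochondrially encoded members passed with edgeR or DESeq2, and 2 had an unadjusted p under 0.05, both higher. That last count is not set against the share of all genes and is not read further. The medians were -0.09 for the nuclear-encoded and 0.04 for the mitochondrially encoded members, against 0.01 for all genes.

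Atp5e (chr2:174461072-174464105) lay between 316 and 412 CPM in shSCR/L-G6pc-/- (median 380.1) and between 259 and 336 CPM in shChREBP/L-G6pc-/- (median 290.1), a log2 difference of -0.31 ± 0.08 (n = 8 and 9, adjusted p = 0.015, edgeR). Ndufv3 (chr17:31520115-31531331) lay between 57.0 and 97.2 CPM and between 49.3 and 70.6 CPM, a difference of -0.41 ± 0.12 (adjusted p = 0.023). Both pairs of ranges overlapped. Leaving out s29, s30, s32 and s33 removed both calls (0 of 82, against 1.02% of all genes called in either direction), with values of -0.23 for Atp5e (adjusted p = 0.31) and -0.31 for Ndufv3 (adjusted p = 0.34), and the median of the 82 members was then -0.01.

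With the library totals alone as scaling, the direction of this comparison turned: 46 of 82 nuclear-encoded members had values above 0, their median was 0.02, and 1 was called higher and none lower. The median of all genes was then 0.11. Under both scalings the median of the members was below that of all genes.

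The size of the shChREBP effect was compared between genotypes in the same fit. None of the 82 nuclear-encoded and none of the 10 mitochondrially encoded members passed this test with edgeR or with DESeq2 (against 0.0786% of all genes in either direction with edgeR), and none passed with edgeR without s29, s30, s32 and s33 either, where 37 of 10399 genes did. At an unadjusted p under 0.05 there were 7 nuclear-encoded members, 4 with a positive and 3 with a negative difference, and 1 mitochondrially encoded member. The share of all genes at that unadjusted p is not given here, so these counts are not a result about the members. The largest standard error among the nuclear-encoded members was 0.51 and the median was 0.16, so that differences of the size seen for Ndufa5 (0.56 ± 0.19, adjusted p = 0.22) or Sdhb, the iron-sulfur subunit of complex II (0.41 ± 0.17, adjusted p = 0.32), did not pass.

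A further contrast set shChREBP/L-G6pc-/- against shSCR/L-G6pc+/+, as the study sought to normalise ChREBP activity in the L-G6pc-/- liver. Mlxipl lay between 216 and 500 CPM in shChREBP/L-G6pc-/- (median 441) and between 449 and 612 CPM in shSCR/L-G6pc+/+ (median 528). The medians of Pklr were 204 and 122 CPM in the same order, so neither median was at the control level. Of the nuclear-encoded members, 2 of 82 were called higher in shChREBP/L-G6pc-/- (2.44%, against 6.87% of all genes). They were Ndufv2, an iron-sulfur subunit at the NADH-oxidising end of complex I, and Atp5f1, subunit b of the peripheral stalk of ATP synthase. Ndufv3 was called lower (1.22%, against 6.37%). Ndufv2 lay between 82.8 and 99.1 CPM in shSCR/L-G6pc+/+ and between 95.8 and 133 CPM in shChREBP/L-G6pc-/- (0.30 ± 0.09, adjusted p = 0.024). Atp5f1 lay between 138 and 205 CPM and between 182 and 244 CPM (0.31 ± 0.09, adjusted p = 0.026), and Ndufv3 between 59.9 and 94.3 and between 49.3 and 70.6 CPM (-0.40 ± 0.11, adjusted p = 0.016). All 3 pairs of ranges overlapped. Without the 4 libraries no member was called (against 3.09% of all genes), with values of 0.27 for Ndufv2, 0.29 for Atp5f1 and -0.30 for Ndufv3 (adjusted p = 0.18, 0.19 and 0.27) from 5 libraries in place of 9, and no mitochondrially encoded member was called in either case.

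The last contrast set the genotypes against each other under shChREBP, and it held the most calls. In shChREBP/L-G6pc-/- 8 of 82 nuclear-encoded members were called higher than in shChREBP/L-G6pc+/+ (9.76%, against 6.14% of all genes), and none was called lower (against 4.9%). The median log2 difference was 0.14, with 61 of 82 above 0, against -0.01 for all genes. The called members belonged to complex I (Ndufa5, Ndufa13, Ndufab1 and Ndufa10), complex III (Uqcr10 and Uqcrfs1) and complex IV (Cox6b1 and Cox7b). No subunit of complex V and none of complex II passed, and their medians were 0.18 and 0.23, against 0.12 in complex I, 0.09 in complex III and 0.22 in complex IV. This contrast shares libraries with the 2 shChREBP contrasts and with the previous one, and repeats none of their tests independently.

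Ndufa5 had the largest log2 difference of the 8, 0.73 ± 0.14 (1.66-fold, adjusted p = 5.2e-04, edgeR), from 148 to 242 CPM in shChREBP/L-G6pc+/+ to 212 to 454 CPM in shChREBP/L-G6pc-/-. Its level in shChREBP/L-G6pc-/- (median 307 CPM) was near that of shSCR/L-G6pc-/- (302 CPM) and of shSCR/L-G6pc+/+ (277 CPM), and the group with the lowest median was shChREBP/L-G6pc+/+ (180.0 CPM). As given above, the shChREBP effect on Ndufa5 was not called different between the genotypes. Ndufa13, an accessory subunit of complex I that is also known as GRIM-19, rose by 0.35 ± 0.07 (adjusted p = 0.0017), from 223 to 276 CPM to 278 to 328 CPM, without overlap. Uqcr10, a small subunit of complex III (chr11:4701973-4704342), rose by 0.38 ± 0.09 (adjusted p = 0.0043), from 112 to 152 CPM to 156 to 215 CPM, again without overlap.

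Cox6b1, a complex IV subunit on the side of the intermembrane space, rose by 0.52 ± 0.14 (adjusted p = 0.013), from 268 to 402 CPM to 350.2 to 635 CPM. Uqcrfs1, the Rieske iron-sulfur protein of complex III, rose by 0.60 ± 0.17 (adjusted p = 0.018). Ndufab1, the mitochondrial acyl carrier protein, which is also a complex I subunit, rose by 0.42 ± 0.12 (adjusted p = 0.021), and 20.1% of its end windows occur in other genes. Cox7b rose by 0.52 ± 0.15 (adjusted p = 0.024) and Ndufa10 by 0.31 ± 0.10 (adjusted p = 0.041). The ranges of these 5 genes overlapped between the groups.

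Without s29, s30, s32 and s33 this contrast had 17 of 82 members called, all higher (20.7%, against 8.78% of all genes in either direction), and the 8 above were among them. Of the mitochondrially encoded members mt-Nd6 was called lower in shChREBP/L-G6pc-/- (163 to 389 CPM against 158 to 676, -0.65 ± 0.21, adjusted p = 0.042), and without the 4 libraries mt-Nd6 was not called and mt-Nd4 was called higher (0.50). Each of the 8 calls kept its sign in every alternative tried, and Ndufa10 was the least stable of them, missing the threshold in 4 of 11 alternatives and in 13 of the 17 fits that left out 1 library.

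**Figure D3:**
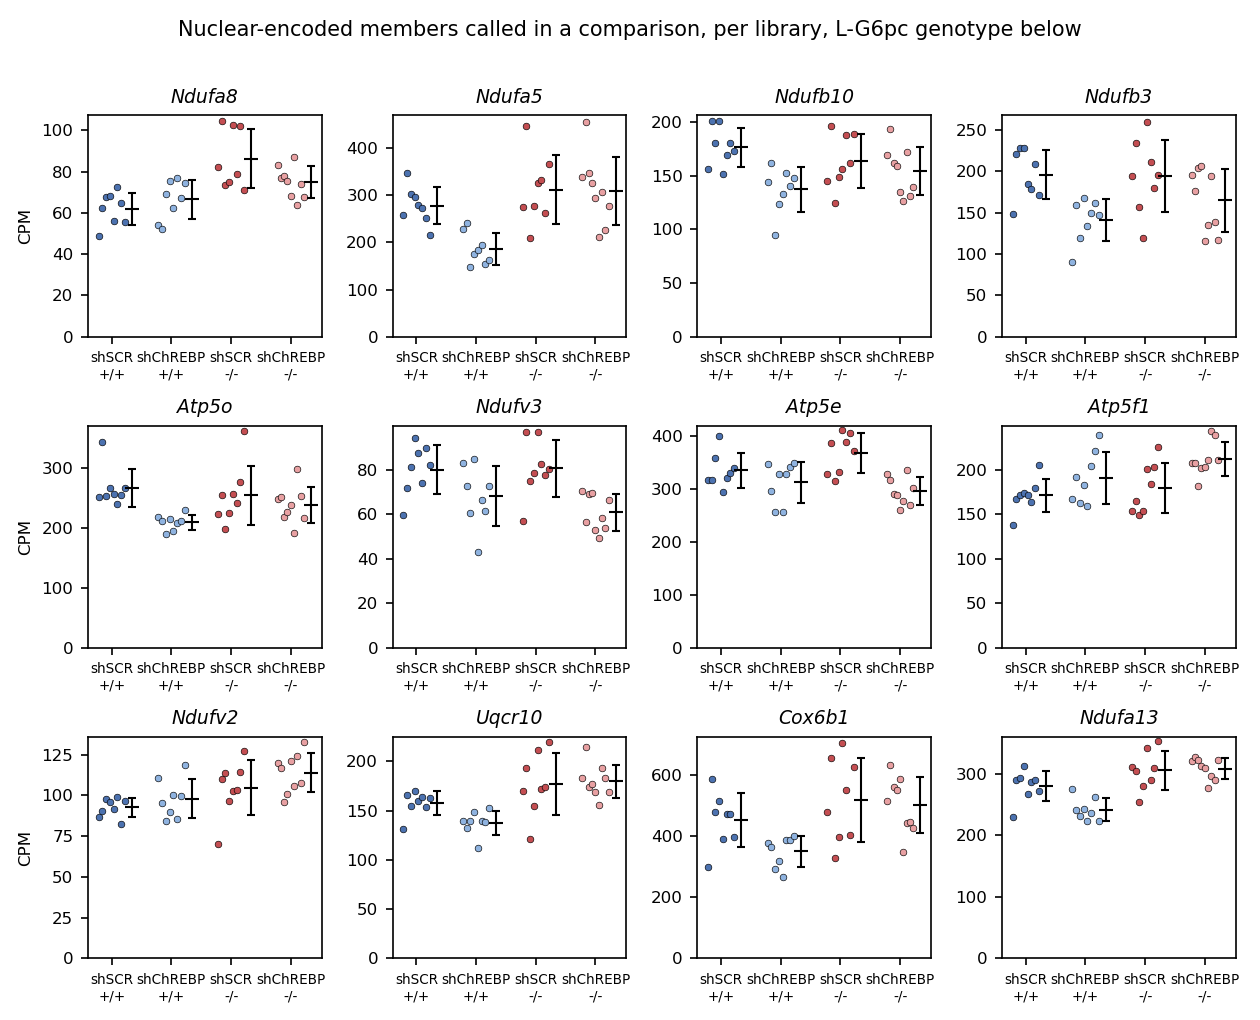
CPM (vertical axis, from 0) of 12 nuclear-encoded members called in at least 1 comparison, per library, in the 4 groups. Points are libraries and bars are mean ± SD (n = 8, 8, 8 and 9). Ndufa5 is lowest in shChREBP/L-G6pc+/+ (148 to 242 CPM), Ndufa8 is highest in shSCR/L-G6pc-/- (71.3 to 105 CPM), and the ranges of most genes overlap between groups.

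No share of all genes called at least once was taken, so the next counts are not set against a background. In all 6 contrasts together 16 of the 82 nuclear-encoded members and 2 of the 10 mitochondrially encoded members were called at least once, and 66 nuclear-encoded members never were. The members with the highest mean level of each complex were mostly among the latter. In complex V these were Atp5g3, a form of subunit c of the membrane ring (medians of 2220 CPM with shSCR and 1966 CPM with shChREBP in L-G6pc+/+, and of 2365 and 2264 CPM in L-G6pc-/-, the order used below), and Atp5a1, the alpha subunit of the catalytic head (973, 917, 1123 and 1095 CPM). In complex IV they were Cox6c (1270.0, 1257, 1325 and 1305 CPM) and Cox6b1. Cox6c had log2 differences between 0.01 and 0.05 in the 5 contrasts between groups and standard errors of 0.11, and 34.9% of its end windows occur in another gene.

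In complex III the most abundant members were Uqcrh (872, 866, 793 and 793 CPM), the hinge protein, and Uqcrq (512, 405, 494 and 458 CPM). Uqcrq was 0.30 ± 0.11 lower on the log2 scale with shChREBP in L-G6pc+/+ and 0.26 ± 0.11 lower in L-G6pc-/-, and neither passed (adjusted p = 0.098 and 0.13). In complex II they were Sdha, the flavoprotein that oxidises succinate (279, 272, 340.1 and 308 CPM), and Sdhb (318, 249, 283 and 302 CPM). In complex I they were Ndufb8 (481, 402, 476 and 499 CPM) and Ndufa2 (428, 427, 430.2 and 411 CPM). The median standard error of a nuclear-encoded member was 0.11 to 0.12 in the contrasts between groups.

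Summed over the 82 members, the nuclear-encoded level was 18019 ± 1577 CPM (SD, n = 8) in shSCR/L-G6pc+/+, 16190 ± 1527 (n = 8) in shChREBP/L-G6pc+/+, 19396 ± 2786 (n = 8) in shSCR/L-G6pc-/- and 18313 ± 1518 (n = 9) in shChREBP/L-G6pc-/-. The mitochondrially encoded sum was 22919 ± 2003, 20979 ± 2743, 22110 ± 2736 and 22356 ± 2801 CPM in the same order. Ranges of libraries overlapped between all pairs of groups for both sums.

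Libraries of one group differed from each other in their members as a set. The median member was 0.25 below its group mean on the log2 scale in s1 (72 of 82 members below), 0.23 below in s13 (71 below) and 0.25 below in s19 (67 below), whereas it was 0.22 above in s24 and 0.19 above in s4 and s18. Within their groups s1 was the lowest library for 37 of 82 members, s13 for 40, s19 for 38 and s30 for 30. These shifts between libraries of one group exceeded the median differences between groups, which lay between -0.09 and 0.14.

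**Figure D4:**
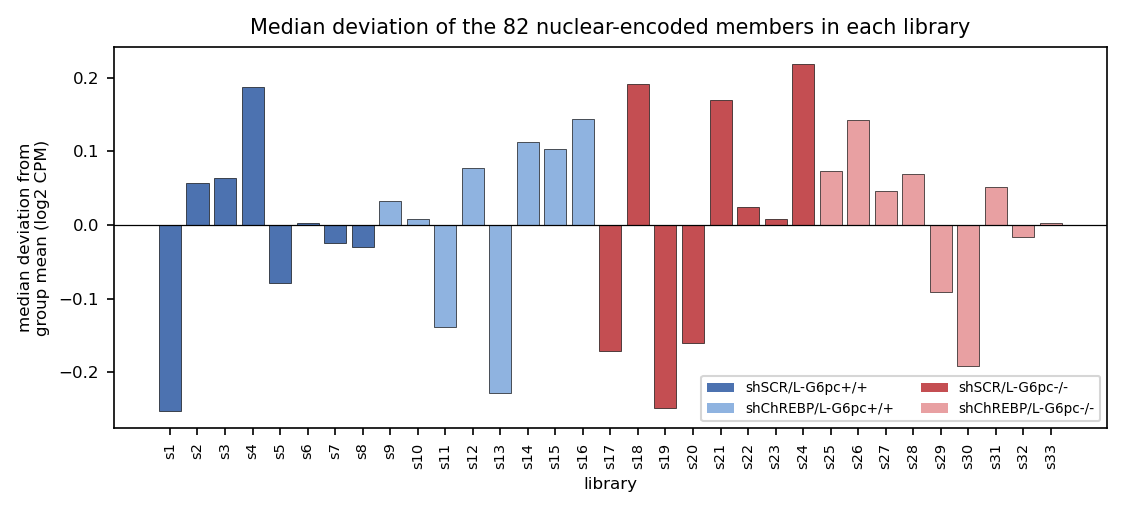
Median deviation of the 82 nuclear-encoded members from their group mean (log2 CPM, vertical axis) in each of the 33 libraries, coloured by group. Bars below 0 mark libraries in which most members were low, with the lowest in s1, s19 and s13 (-0.25, -0.25 and -0.23).

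Most members were steady within a group: the median within-group SD was 0.23 on the log2 scale against 0.33 for all genes, and 32 of 82 exceeded the median of genes at their own level. A few were not, and these were picked after their values were seen. Sdhd, the membrane anchor of complex II, had a within-group SD of 0.87 against a median of 0.26 for genes at its level, and it ran from 6.85 to 66.3 CPM in shChREBP/L-G6pc-/- alone. Atp5j, coupling factor 6 of ATP synthase, had an SD of 0.70 against 0.23 and ran from 141 to 416 CPM in shSCR/L-G6pc-/- and from 54.8 to 334 CPM in shChREBP/L-G6pc-/-. Atp5l (0.70 against 0.47), Cox7c (0.58 against 0.29), Ndufa4, a complex IV subunit named after complex I (0.51 against 0.23), and Ndufa1 (0.50 against 0.23) followed. Atp5g2 (0.46 against 0.29), Ndufa12 (0.40 against 0.24) and Atp5h (0.39 against 0.24) were also above the 90th percentile of genes at their level. Ndufaf5 had an SD of 0.56, near the 0.55 of genes at its level. The low libraries recurred: s9 was the lowest of its group for Sdhd, Atp5j, Cox7c, Ndufa4 and Ndufa1, s5 for Atp5j, Cox7c, Ndufa4 and Ndufa1, s29 for Sdhd, Atp5j and Ndufa1, and s33 for Cox7c and Ndufa4. A single gene, Gm42418, held 4.22% to 15.7% of the counts of a library, with 15.7% in s9, 4.41% in s5, 8.06% in s29 and 10.6% in s33. Its part in these low values was not tested. Because of the spread within groups, differences as large as the -0.77 ± 0.31 of Atp5j with shChREBP in L-G6pc+/+ (adjusted p = 0.14, edgeR) were not called.

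Around the complexes, genes that feed or build them were read from lists, with members taken out. The background is the share of all genes called: 2.2% higher and 1.03% lower between the shSCR groups, 2.16% and 3.23% with shChREBP in L-G6pc+/+, and 3.33% and 4.23% with shChREBP in L-G6pc-/-. These lists are small, and a single call exceeds such a share in many of them.

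Between the shSCR groups 3 of 10 genes of pyruvate entry were called higher in L-G6pc-/-: Pdha1 (0.32 ± 0.09, adjusted p = 0.027, edgeR) and Pdhb (0.65 ± 0.13, adjusted p = 0.0022), both subunits of the pyruvate dehydrogenase enzyme, and Pcx, pyruvate carboxylase (0.49 ± 0.14, adjusted p = 0.034). Of 14 citric acid cycle genes, Fh1, fumarate hydratase, was called higher (0.54 ± 0.14, adjusted p = 0.027). Of 9 regulators of mitochondrial biogenesis, Ppargc1a, the coactivator PGC-1 alpha (1.22 ± 0.33, adjusted p = 0.030), and Nfe2l2 (0.49 ± 0.12, adjusted p = 0.011) were called higher, and the median of the 9 was -0.03. Of 19 import and cristae genes Minos1 was called higher (0.42 ± 0.09, adjusted p = 0.0043). Leaving out 1 library at a time ended the call of Fh1, Pcx and Ppargc1a in 7 of 16 fits each and that of Pdha1 in 5 of 16. None of the 72 mitochondrial ribosomal proteins, which help to translate the mitochondrially encoded members, was called.

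With shChREBP in L-G6pc-/- 2 of the 10 pyruvate entry genes were called lower, Pdk1, a kinase that switches pyruvate dehydrogenase off (-1.06 ± 0.16, adjusted p = 3.4e-05), and Pdha1 (-0.35 ± 0.08, adjusted p = 0.0068). In the citric acid cycle Dlst and Suclg2 were called lower (-0.61 ± 0.15 and -0.47 ± 0.13, adjusted p = 0.0079 and 0.023), among mitochondrial ribosomal proteins Mrpl34 and Mrpl11 (-0.47 ± 0.11 and -0.38 ± 0.12, adjusted p = 0.0047 and 0.035), and among 9 assembly factors of complex I outside the members Ndufaf8 (-0.31 ± 0.09, adjusted p = 0.026). Of 16 chaperones, proteases and antioxidants Lonp1 (0.44 ± 0.08, adjusted p = 4.1e-04) and Hspa9 (0.28 ± 0.09, adjusted p = 0.045) were called higher and Hspe1 lower (-0.51 ± 0.14, adjusted p = 0.025). Of the import and cristae genes Tomm22 and Minos1 were called lower (-0.47 ± 0.13 and -0.27 ± 0.09, adjusted p = 0.024 and 0.0497), and of 11 fusion, fission and mitophagy genes Mfn1 was called higher (0.28 ± 0.09, adjusted p = 0.047) and Bnip3l lower (-0.48 ± 0.13, adjusted p = 0.018).

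Without s29, s30, s32 and s33 only Pdk1 (-0.85, adjusted p = 0.0097) and Lonp1 (0.35, adjusted p = 0.046) of these 14 list genes were called. Calls among all genes fell as well, to 1.02% in either direction from 3.33% higher and 4.23% lower. The loss of calls is therefore not particular to these genes. Dlst then stood at -0.45, Pdha1 at -0.26, Mrpl34 at -0.45 and Bnip3l at -0.50 (adjusted p = 0.24, 0.20, 0.092 and 0.12), and Hspe1 and Minos1 at -0.28 and -0.16 (adjusted p = 0.53 and 0.59). Leaving out 1 library at a time ended the call of Mfn1 in 13 of 17 fits, of Hspa9 in 11 and of Minos1 in 10.

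Several of these genes were also called with shChREBP in L-G6pc+/+. There Pdk1 had a value of -0.88 ± 0.17 (adjusted p = 0.0021), Dlst of -0.79 ± 0.15 (adjusted p = 0.0025), Mrpl11 of -0.54 ± 0.12 (adjusted p = 0.0072) and Ndufaf8 of -0.46 ± 0.09 (adjusted p = 0.0030). The effects in the 2 genotypes were not called different for Pdk1 (-0.18 ± 0.23, adjusted p = 0.81) or Dlst (0.18 ± 0.21, adjusted p = 0.78). The other list genes called in L-G6pc+/+, named after their values were seen, were Pdhx, Mrpl32, Mrpl33, Chchd3, Samm50, the complex IV assembly factor Coa3, the coenzyme Q synthesis gene Coq7 and Lrpprc, all lower, and the mitochondrial ribosomal RNA mt-Rnr1, higher (0.53 ± 0.14, adjusted p = 0.022). Lists of 4, 5 and 2 assembly factors of complexes II, III and V, of 7 other electron donors to coenzyme Q and of 11 exchangers, porins and uncoupling genes had no call in these 3 contrasts. The lists of 21 complex IV assembly factors, 13 genes of electron carriers and coenzyme Q synthesis, 15 genes of mitochondrial DNA maintenance and transcription and 2 mitochondrial ribosomal RNAs had none besides those named.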

How the data were processed

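Hepatic RNA of 33 libraries in 4 groups was sequenced from 3' QuantSeq libraries. The deposited table of raw gene counts was made by the authors from HISAT alignments to GRCm38, handled with SAMtools and summarised by HTSeq. The authors also deposited a table made with voom of limma (unit: signal), whose values are linear, so their log2 was used. The study's methods name an Ensembl release of that build and default alignment settings. Versions of the tools and the strand setting are not given in the sources used here.

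Counts were filtered with filterByExpr (minimum count 10, minimum total 15), which kept 10179 genes, scaled by TMM and fitted with edgeR 4.0.16 in R 4.3.3, quasi-likelihood, with all 4 groups in one fit. Calls had a two-sided Benjamini-Hochberg adjusted p under 0.05 over all genes tested. limma 3.58.1 and DESeq2 1.42.0 served as alternatives. GENCODE M21 named 25817 identifiers and left 171 unnamed. Log2 CPM used a prior count of 2. Standard errors are the log2 difference divided by the square root of F. The scripts were tested on simulated data for shChREBP against shSCR in L-G6pc-/-. Of 50 genes changed 1.25-fold, 4 were called in the right direction. At 1.5-fold 28 of 50 were called, and at 2-fold 45 of 50. A member without a call is therefore not shown to be unchanged. Members and gene lists were chosen with earlier results of these data known. Named genes were, per contrast, up to 8 called members in each direction, all mitochondrially encoded members, the 2 most abundant nuclear-encoded members of each complex, isoform pairs in the table, and up to 3 called genes of each list. Depth sets the counting error, which no interval here covers beyond the spread of libraries.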

Additional observations from a re-analysis of the deposited data

Results flagged for a closer look

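In 15 of 232 groups of libraries checked, the highest or lowest library lay far from the next one, measured by its gap over the whole range of the group, and chance gives about 1 in 20 such groups. Among the members, mt-Nd6 in shSCR/L-G6pc+/+ had 398 CPM in s6 against 256 in the next library, Atp5o had 343 CPM in s2 against 267, Ndufab1 had 51.0 CPM in s7 against 40.3, Uqcrh had 1103 CPM in s8 against 905, and Uqcr10 had 131 CPM in s1 against 153. In shSCR/L-G6pc-/- mt-Nd2 had 7649 CPM in s24 and mt-Nd5 889 CPM in s18. Ndufa2 had 526 CPM in s33 of shChREBP/L-G6pc-/-, and Cox7a1 had 9.73 CPM in s14 of shChREBP/L-G6pc+/+.

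Of the other mitochondrial genes, Pdhb had 108 CPM in s6 of shSCR/L-G6pc+/+ and 87.5 CPM in s12 of shChREBP/L-G6pc+/+, Pdk1 had 62.0 CPM in s12, Hspe1 had a lowest value of 17.2 CPM in s9, Lonp1 had 148 CPM in s23 of shSCR/L-G6pc-/- and Mfn1 had 84.5 CPM in s3 of shSCR/L-G6pc+/+. The shChREBP effect differed between genotypes by a test of the difference for 0 of the members with edgeR and DESeq2.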

How the results depend on the processing

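Counts of called nuclear-encoded members moved with the processing. The share of all genes called in each alternative is not given beside the counts of this section. A change in a count is therefore not a result about the members. Between the shSCR groups the 1 call became 2 with DESeq2 and 2 when s29, s30, s32 and s33 were omitted, and 1 to 2 when 1 library was left out, with 2 without s2, s20 or s23. With shChREBP in L-G6pc+/+ the 4 calls became 10 with DESeq2, 10 with only the compared groups, 8 without the same 4 libraries, 1 without the count filter and 2 with s9 and s13 omitted; leaving out 1 library gave 1 to 8, with 8 without s1, 1 without s2, s11, s13 or s15, and 2 without s3, s4, s6, s7 or s14. With shChREBP in L-G6pc-/- the 2 calls became 1 by library size, 0 without the filter and 0 without the 4 libraries, and 1 to 3 with 1 library left out, with 1 without s18, s21 or s30. Against shSCR/L-G6pc+/+ the 3 calls of shChREBP/L-G6pc-/- became 6 by library size (5 higher and 1 lower in place of 2 and 1), 1 without the filter and 0 without those 4 libraries (2 to 4 with 1 left out), and against shChREBP/L-G6pc+/+ the 8 became 19 and 17 (6 to 12). The cause of these changes was not tested.

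Of the mitochondrially encoded members the 2 calls in L-G6pc+/+ became 1 with limma-voom, limma with trend, library size, no filter or only the compared groups and 0 without s9 and s13 (0 to 2 with 1 library left out, 0 without s4, s11 or s15 and 1 without s1, s2, s3, s5, s7, s8, s9, s10 or s13). The 1 call of shChREBP/L-G6pc-/- against shChREBP/L-G6pc+/+ became 0 with limma-voom, limma with trend, only the compared groups or without s9 and s13, and 0 to 1 with 1 left out, with 0 without s9, s10, s11, s13, s15, s25, s26 or s29 to s33. By library size, and without s29, s30, s32 and s33, the 1 call was mt-Nd4, higher. No named gene changed direction past the threshold; 238 gene values fell short of the threshold and 18 passed it. Library size alone moved the median of all genes by 0.11 with shChREBP in L-G6pc-/-. No paired analysis was possible because the groups share no replicate numbers.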
